A study of Mus musculus and Rattus norvegicus with 2 samples.

Results

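Sperm of the cauda epididymis, the storage end of the sperm duct, held many short pieces of 18S ribosomal RNA (rRNA), and 9423 such sequences were listed for the mouse and 5399 for the rat. They are the sequences that the deposited tables assign to the Rfam family of eukaryotic small-subunit rRNA, out of 89179 listed mouse sequences and 137388 listed rat sequences. Sperm of C57BL/6 mice aged 2 months gave the mouse library, and sperm of Sprague Dawley rats, young adults of 450 g, gave the rat library, with no treatment named in the labels. There was 1 library per species, made from purified sperm and a small RNA fraction of 18 to 45 nt, and the labels do not say how many animals went into each. No difference between the libraries could therefore be tested, and species cannot be told apart from library, strain or animal. Ranges in brackets are 95% intervals, exact Clopper-Pearson for shares and exact Poisson for single counts, and they cover counting error only.

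18S rRNA is the RNA of the small ribosomal subunit, the part of the ribosome that binds the mRNA and reads its codons. It is cut out of a long precursor in the nucleolus, folds into a conserved set of helices and carries many chemically modified bases. Mature sperm translate little, and their rRNA is known to be largely cleaved. Short rRNA pieces in a sperm library can therefore be described by where along the 18S molecule they begin and end.

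The fragments were placed on 18S rRNA assembled from the reads of each library, 1872 nt long for the mouse and 1873 nt for the rat, and positions below count from 1 at the 5′ end of the mouse molecule. Of the member reads, 99.98% of those of the mouse and 99.99% of those of the rat could be placed without gaps at up to 2 mismatches, each member at a single best position. The 2 assembled molecules differed at 3 positions, written mouse base, position, rat base (G245C, T249C and C326T), and the rat had 1 more base after position 203, a T in 194 of the 200 rat reads under any label that cover it (93.6% to 98.9%). The molecules were assembled from the same libraries, so this placing is not an independent check of the label. Sense orientation held for all but 1 of the mouse members and for every rat member. The 2 mouse members and 9 rat members that could not be placed held 3 and 9 reads.

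The most abundant fragments show what the libraries contained. They are given in lower case as deposited, with capitals where the fragment differs from the database entry that the deposited table matched it to. The 5 most abundant in the mouse, here with their positions in 18S rRNA, came from its 5′ end and from 2 sites further along.
Mouse, positions 1 to 18: tacctggttgatcctgcc
Mouse, positions 1 to 44: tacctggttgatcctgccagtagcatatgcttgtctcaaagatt
Mouse, positions 1771 to 1813: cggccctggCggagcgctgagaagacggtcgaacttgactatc
Mouse, positions 1438 to 1480: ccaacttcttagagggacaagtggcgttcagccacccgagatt
Mouse, positions 1770 to 1813: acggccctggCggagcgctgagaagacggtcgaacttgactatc
The 5 most abundant labelled 18S fragments of the rat came from 3 other sites, and each differed from its database entry.
Rat, positions 1256 to 1279: cgggaaacctcaCccggccCggac
Rat, positions 587 to 605: Cgaggatccattggagggc
Rat, positions 1255 to 1279: acgggaaacctcaCccggccCggac
Rat, positions 423 to 445: gttCgattcCggagagggagcct
Rat, positions 423 to 444: gttCgattcCggagagggagcc
All 10 of these matched the assembled 18S rRNA of their own species without a mismatch. The assembly follows the most frequent bases of the same reads, so such a match is favoured by its construction.

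The 18-nt piece of the 5′ end was the most abundant mouse fragment, with 1176 reads (1110 to 1245), or 3.37% of mouse 18S reads, against 16 reads in the rat, where it was listed under a GenBank mRNA label. The 44-nt piece with the same start had 578 mouse reads, and the fragments of positions 1771 to 1813, 1438 to 1480 and 1770 to 1813 had 531, 374 and 347. None of these 4 longer fragments was listed in the rat library. The leading rat fragment, positions 1256 to 1279, had 52 reads (38.8 to 68.2) in the mouse, where it ranked 97th among 18S fragments, against 2960 reads (2854 to 3069) in the rat. The fragment of positions 587 to 605 had 37 mouse reads and 2482 rat reads. The other 3 rat leaders had 66, 44 and 29 reads in the mouse, against 1831, 1242 and 1005 in the rat. All 5 rat leaders were thus present in the mouse library, at ranks from 61 to 207 among its 9029 counted 18S sequences.

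Part of the mouse 18S sequence also lies in Gm42418, a long non-coding RNA gene of GENCODE M21 on the plus strand at chr17:39846958-39848788 (GRCm38), whose first base is position 601 of 18S rRNA. RefSeq places the 18S copy Rn18s-rs5, annotated as a pseudogene, at chr17:39846354-39848202. The mouse fragment of positions 1438 to 1480 matches chr17:39847795-39847837 there, and the leading rat fragment has the same letters as chr17:39847613-39847636 of the mouse. Gm42418 differs from the mouse 18S assembled from reads at 7 positions and lacks 27 of its bases, positions 1738 to 1764. The 7 include position 1250, where the assembled C was in 11 of 21 mouse reads and the T of Gm42418 in 10. The chr17 coordinates are those of a copy, since rRNA is made from many repeats.

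Most 18S reads of the rat stood outside the 18S label. In the mouse 34869 of 691381 listed reads carried it, a share of 5.04% (4.99 to 5.10), against 71486 of 2102735 reads or 3.40% (3.38 to 3.42) in the rat, a ratio of 1.48 for mouse over rat. When sequences under any deposited label that align to 18S rRNA with at most 2 mismatches were added, it was 5.09% of mouse reads and 7.66% of rat reads, and the ratio was 0.664. The direction of the comparison between species thus depended on the labels. It also covers listed sequences only, which stand for 53.3% of mouse identifiers and 68.6% of rat identifiers. This added 81 mouse sequences with 320 reads and 9354 rat sequences with 89686 reads. In the rat 56274 of these reads were labelled GenBank mRNA, 32721 GenBank rRNA and 650 piRNA, and 92.9% of them matched the assembled rat 18S rRNA perfectly.

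The Rfam entries behind the label differed between the species. Mouse members were matched to 2 entries, of 1847 nt with 84.8% of the reads and of 1656 nt with 15.2%. Rat members were all matched to 1 entry of 1746 nt. No labelled rat fragment began before position 423. Yet 23277 aligning rat reads began in the first 400 positions, each of them under another label. Over windows of 100 nt, the share of aligning reads that carried the label lay between 92.3% and 100% in the mouse and between 0% and 98.9% in the rat. The rat windows with the most complete labelling began at positions 501 and 801, and the window from 1701 had 14.5%. Because the label left out most rat 18S reads, the main comparisons below are given for labelled reads and again for reads under any label.

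**Figure D1:**
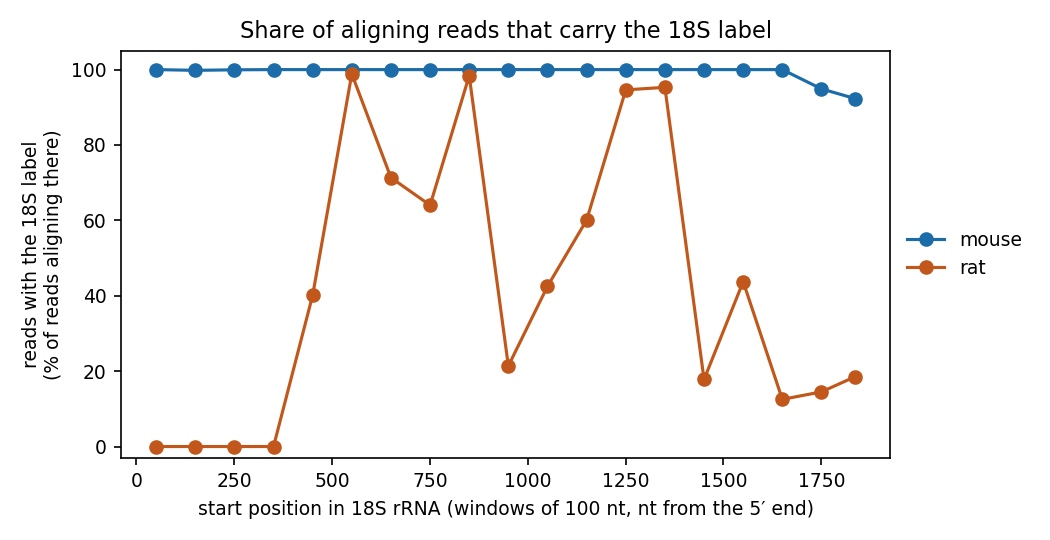
Share of 18S-aligning reads that carry the 18S label, by start position in windows of 100 nt along 18S rRNA, in the mouse and rat libraries. The mouse line lies at 92.3% or above throughout, and the rat line is at 0% over the first 400 positions and peaks at 98.9%.

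The labelled mouse fragments were longer than the labelled rat fragments. Their median length, weighted by reads, was 34 nt for the mouse, with quartiles of 24 and 41 nt, and 23 nt for the rat, with quartiles of 21 and 29 nt. Fragments of 18 to 25 nt held 29.9% of mouse reads (29.4 to 30.4) and 63.6% of rat reads (63.3 to 64.0). Fragments of 34 to 45 nt held 50.3% of mouse reads (49.8 to 50.9) and 10.8% of rat reads (10.6 to 11.1). With any label, fragments of 18 to 25 nt held 30.3% of mouse reads and 52.6% of rat reads, and the medians were 34 and 25 nt, so the direction held while the gap was smaller. Of rat reads under any label, the 18S label was on 5584 of 7615 at 19 nt, 1346 of 7572 at 28 nt and 946 of 1330 at 39 nt. Matches to an entry allowed up to 2 mismatches, and the effect of this limit on the labelled lengths was not tested.

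The mouse lengths had separate peaks. The most used mouse lengths were 43 nt, with 9.27% of reads, and 18 nt, with 9.22%, the shortest length taken, and 35 nt held 5.68%. In the rat the most used length was 22 nt with 11.1% of labelled reads, and 43 nt held 0.0588%. The whole libraries differed in the same direction: fragments of 34 to 45 nt made up 28.5% of all listed mouse reads and 15.4% of all listed rat reads. The part of that overall difference in the length of the 18S fragments was not tested. The longest labelled mouse fragment had 70 nt and the longest labelled rat fragment 60 nt, beyond the stated size fraction.

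**Figure D2:**
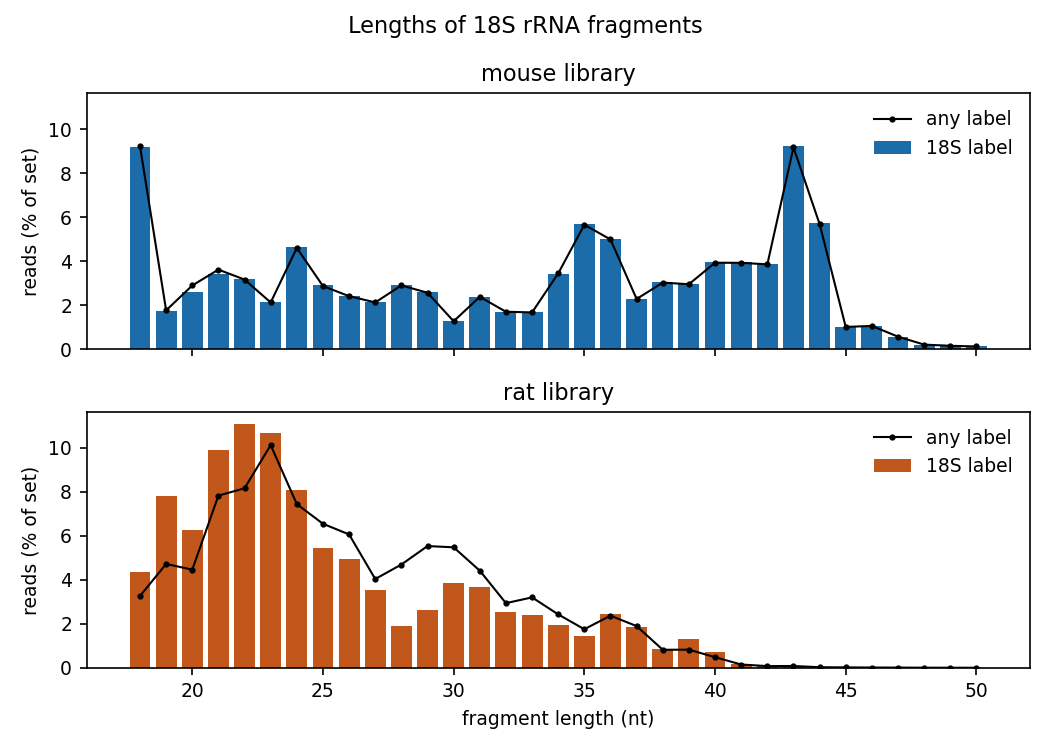
Length of 18S fragments from 18 to 50 nt, as the percentage of 18S reads, for the mouse (top) and the rat (bottom), with bars for reads under the 18S label and lines for reads under any label. The mouse has peaks at 18 and 43 nt, and the rat has its peak at 22 nt (label) or 23 nt (any label).

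In the mouse the most used start was position 1. The assembly was begun at the most used mouse start, so this rank follows from its construction. A read reaching further 5′ could not be placed without gaps. Position 1 began 2307 reads, or 6.62% of labelled mouse reads (6.36 to 6.88). The lengths of these fragments fell mainly on 18 nt (52.7% of the 2307 reads) and 44 nt (26.6%). No rat read at this start carried the 18S label. With any label, position 1 began 6.56% of mouse reads (6.30 to 6.82) and 86 rat reads, or 0.0534% (0.0427 to 0.0659), a 123-fold difference. A fragment from position 1 to 37 had 144 mouse reads and 16 rat reads, as many rat reads as the 18-nt piece.
5′ end, positions 1 to 37: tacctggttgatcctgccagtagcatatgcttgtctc

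Next in the mouse came starts close to the 3′ end. Position 1770 began 1095 mouse reads (3.14%) and 50 rat reads (0.0700%), and position 1771 began 998 mouse reads (2.86%) and 479 rat reads (0.670%). The end used most by mouse reads from both starts was position 1813, with 33.6% of those from 1770 and 56.5% of those from 1771. Position 1789 began 660 mouse reads (1.89%) and 0 labelled rat reads, and with any label 598 rat reads (0.371%). Positions 1770 to 1789 together began 15.2% of mouse reads (14.8 to 15.6) and 0.877% of rat reads (0.810 to 0.948). With any label they began 15.1% of mouse reads and 8.97% of rat reads, so the 17.3-fold gap between labelled reads came down to 1.68-fold. From the same start the rat fragments were shorter: with any label, reads from position 1771 had most often 43 nt for the mouse (56.5%) and 30 nt for the rat (39.0%).

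The cluster of starts from 1380 to 1384 was heavily used in both libraries. It began 8.17% of labelled mouse reads (7.88 to 8.46) and 9.69% of labelled rat reads (9.47 to 9.91). With any label the shares were 8.09% and 4.55%, so which library had the higher share depended on the labels. Within it, position 1380 began 758 mouse reads (2.17%) and 727 rat reads (1.02%), position 1381 began 537 mouse reads (1.54%) and 2439 rat reads (3.41%), and position 1384 began 752 mouse reads (2.16%) and 2155 rat reads (3.01%). With any label position 1381 began 1.53% of mouse reads and 1.59% of rat reads, and at position 1384 the direction turned, with 2.14% of mouse reads and 1.46% of rat reads. Position 1380 began 2.15% of mouse reads and 0.470% of rat reads with any label. The other leading mouse starts were 1438 with 517 reads, 505 with 512 and 423 with 453. At position 505 the share was 1.47% of labelled mouse reads and 0.438% of labelled rat reads, and with any label 1.46% and 0.205%. Position 1438 stood out between the species, with 1.48% of labelled mouse reads and 8 rat reads (0.0112%). With any label it began 1.47% of mouse reads and 9 rat reads (0.00558%; 0.00255 to 0.0106), a 263-fold difference that rests on these 9 reads. Of the 517 mouse reads there, 412 (79.7%) had 43 nt, a length that held 0.0831% of rat reads under any label.

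The rat starts were led by position 587. It began 101 mouse reads (0.290%) and 5508 rat reads (7.71%; 7.51 to 7.90), and 19 nt, ending at position 605, was the most used length there in each library. With any label position 587 began 0.287% of mouse reads and 3.43% of rat reads. Positions 1255 and 1256 began 220 and 191 mouse reads (0.631% and 0.548%), against 2261 and 4548 rat reads (3.16% and 6.36%), and with any label the pair began 1.17% of mouse reads and 4.41% of rat reads. Position 423 began 453 mouse reads and 3466 rat reads (4.85%), and with any label 1.29% of mouse reads and 3.52% of rat reads. Positions 775, 452, 841 and 1722 completed the 10 leading rat starts, with 192, 14, 9 and 9 mouse reads against 1695, 1667, 1540 and 1489 rat reads. Their shares ran from 0.0258% to 0.551% of mouse reads and from 2.08% to 2.37% of rat reads. With any label these 4 starts ran from 0.0256% to 0.546% of mouse reads and from 0.929% to 1.26% of rat reads. At position 1722, where 26 mouse reads began under any label, the 80.7-fold higher share of the rat came down to 12.6-fold.

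With any label, other rat sites led. These sites were chosen after their values were seen. Position 1737 began 3 mouse reads (0.00853%; 0.00176 to 0.0249) and 8105 rat reads (5.03%; 4.92 to 5.14), the most of any rat start, of which 831 carried the 18S label. It lies 1 base before the stretch that Gm42418 lacks, and labelled mouse reads left positions 1748 to 1762 uncovered. No labelled mouse read began from position 1731 to 1762, and the main mouse entry has 1847 nt against 1872 nt assembled. Mouse reads under unlisted identifiers were not counted, and whether any came from this stretch was not tested. The interval of the mouse share covers counting error only. Positions 338 and 339 began 58 mouse reads (0.165%) and 6090 rat reads (3.78%), and position 966 began 100 mouse reads (0.284%) and 2758 rat reads (1.71%). The leading fragments at these 3 sites are shown because none carries the 18S label in the rat.
Rat, positions 1737 to 1765: aggccctcggatcggccccgccggggtcg
Rat, positions 338 to 360: acgacccattcgaacgtctgccc
Rat, positions 339 to 360: cgacccattcgaacgtctgccc
Rat, positions 966 to 990: attcttggaccggcgcaagacggac
The fragment from 1737 was not listed in the mouse and had 1893 reads (1809 to 1980) in the rat, under GenBank rRNA. The fragment from 338 is listed in the mouse with its count lost and had 2376 rat reads, that from 339 had 6 mouse and 2137 rat reads, and that from 966 had 93 mouse and 1972 rat reads, all under GenBank mRNA in the rat. The last matches chr17:39847323-39847347 of the mouse copy in Gm42418.

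There were 91 starts with at least 100 labelled reads from one species and at least 10 from the other, of which 25 had the higher share among mouse reads and 66 among rat reads. The largest ratios toward the mouse were at 1772, 1770 and 1773, with log2 ratios of mouse over rat of 5.78, 5.49 and 4.43. With any label these were 2.71, 2.78 and 3.24. The largest toward the rat were at 452, 587 and 1086, with -5.86, -4.73 and -4.52, and with any label -4.98, -3.58 and -4.30. Position 1086 began 16 mouse reads and 750 rat reads. All 6 kept their direction under any label, while their sizes came down.

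**Figure D3:**
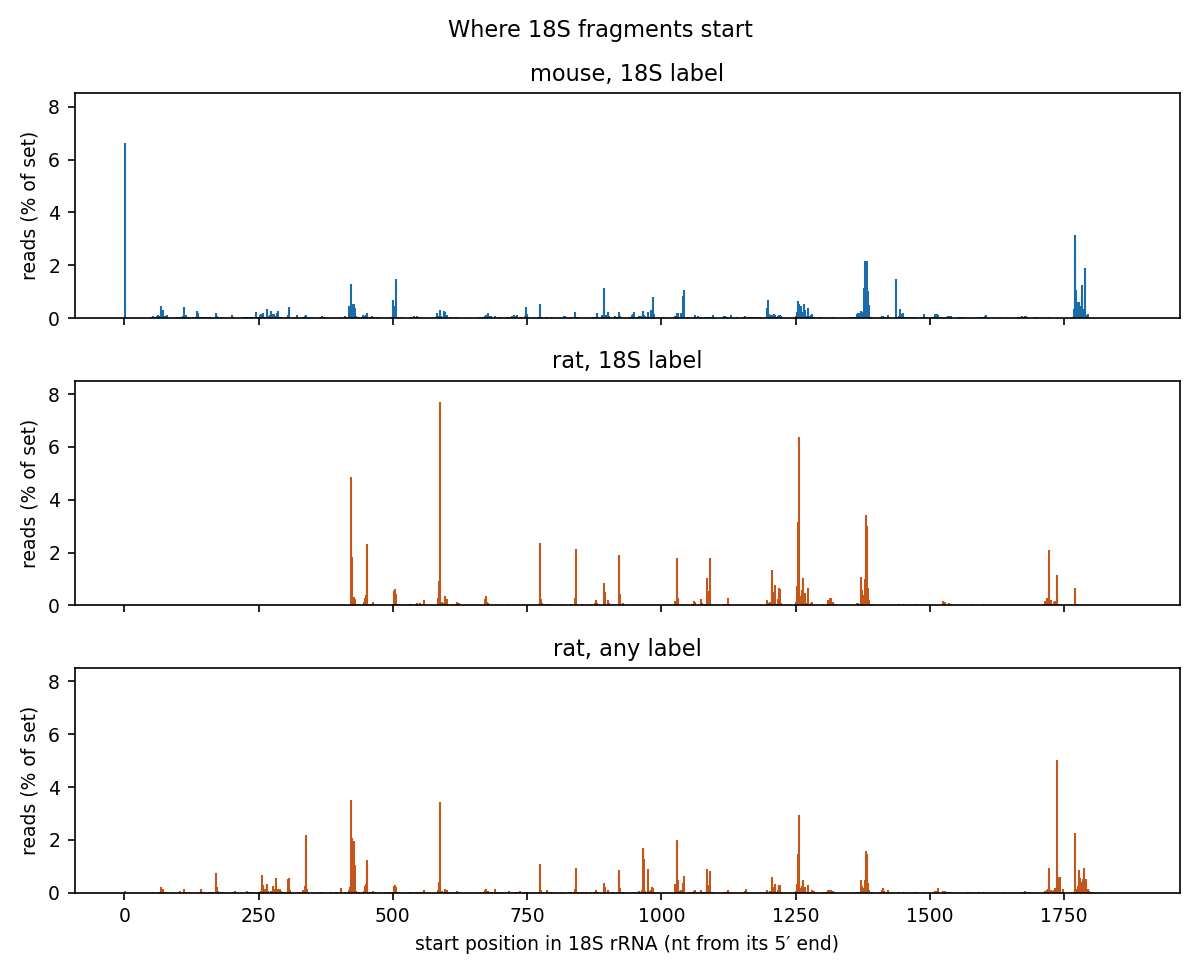
Percentage of 18S reads that begin at each position of 18S rRNA, for labelled mouse reads (top), labelled rat reads (middle) and rat reads under any label (bottom), on 1 scale. The mouse has its highest bar at position 1 (6.62%), the labelled rat reads at 587 (7.71%) and the rat reads under any label at 1737 (5.03%).

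The 3′ part of the molecule, from position 1249 on, began 47.1% of labelled mouse reads (46.5 to 47.6) and 42.8% of labelled rat reads (42.5 to 43.2), and with any label 47.5% and 39.0%. The first 400 positions began 18.7% of mouse reads, and with any label 18.6% of mouse reads and 14.4% of rat reads. Labelled mouse reads covered 1851 positions and labelled rat reads 1303, and reads under any label covered 1871 in each. The shares of reads per start ranked alike only in part: Spearman's rho over the 1872 positions was 0.348 for labelled reads and 0.725 for reads under any label. This is a description over positions, which share a library, and many of them are at 0 in both.

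Fragments ended with a C far more often than the base makes up of the molecule. The last base was C in 50.8% of mouse reads and 59.3% of rat reads, against 26.6% of 18S positions in each species. With any label the shares were 51.1% and 58.5%. The base just after the end was A in 39.5% of mouse reads and 37.1% of rat reads, against 22.4% of positions, and with any label in 39.4% and 28.3%. The base just before the start was A in 25.5% of labelled mouse reads and 51.5% of labelled rat reads, and with any label in 25.3% and 40.5%. A few sites can set such shares: the most used ends of labelled reads were 1813, 18 and 1420 in the mouse and 1279, 605 and 1285 in the rat, and position 1279 alone ended 9.21% of labelled rat reads. With any label the leading mouse ends were the same, the leading rat ends were 1279, 360 and 990, and position 1279 ended 4.32% of rat reads.

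Reads were spread over more sequences in the mouse. Its 10 most abundant labelled sequences held 12.3% of the reads (11.9 to 12.6), against 19.0% (18.8 to 19.3) in the rat, and the 100 most abundant held 33.4% and 55.2%. 278 sequences held 50% of mouse reads and 75 held 50% of rat reads. The 10 most used starts held 24.6% of mouse reads (24.2 to 25.1) and 37.4% of rat reads (37.1 to 37.8). The mouse had 9029 labelled sequences with a count, against 3725 expected for the deeper rat library if its labelled reads were thinned to the mouse total. With any label these numbers were 9104 for the mouse and 6083 for the rat. Sequences of a single read made up 63.4% of mouse members with a count and 51.3% of rat members. With any label the gap nearly closed for the top of the list, with 12.2% and 12.4% in the 10 most abundant sequences, but 280 mouse and 163 rat sequences were needed to hold 50% of the reads.

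**Figure D4:**
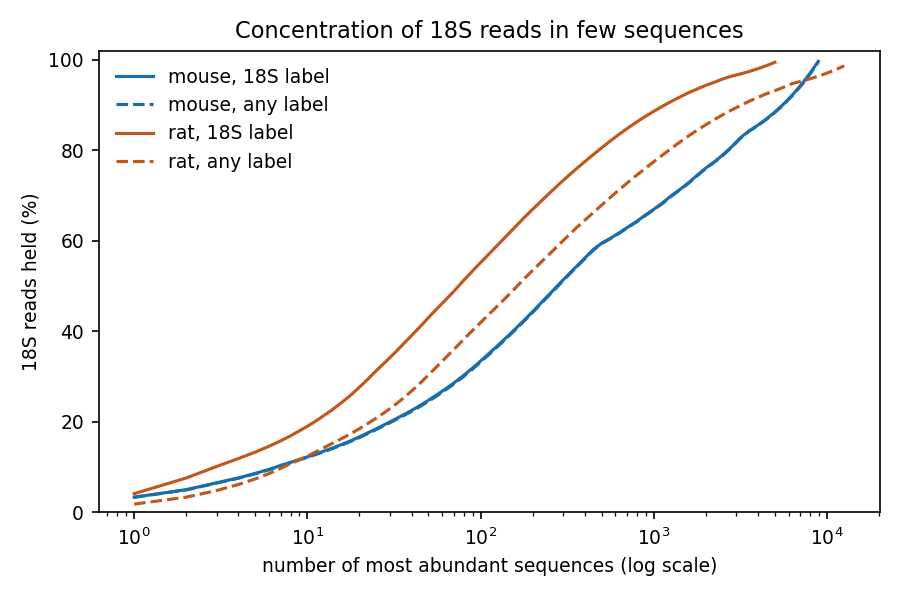
Cumulative percentage of 18S reads held by the most abundant sequences (log scale), for the mouse and the rat, with solid lines for labelled reads and dashed lines for reads under any label. The 10 most abundant labelled sequences hold 12.3% of mouse reads and 19.0% of rat reads, and with any label 12.2% and 12.4%.

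Identical sequences were listed as 18S in both libraries in 1689 cases, 17.9% of mouse members and 31.3% of rat members. They held 28.5% of mouse reads (28.0 to 29.0) and 80.8% of rat reads (80.5 to 81.1). The same letters often had another label in the rat: 22.8% of mouse 18S reads belonged to sequences listed in the rat as GenBank mRNA, and 13.1% to sequences listed there as GenBank rRNA. With any label 3774 sequences were shared, holding 64.7% of mouse reads and 73.9% of rat reads. By the first 18 nt alone, with any label, 96.2% of mouse reads and 96.1% of rat reads had a counterpart in the other library. The counts of the shared labelled sequences ranked together only loosely, with a Spearman's rho of 0.352 over 1558 sequences with a count in each, and 0.357 over 3486 with any label, given as a description.

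The deposited mismatches were far more frequent in the rat. A mismatch to the database entry was listed for 18.8% of mouse reads (18.4 to 19.2) and 83.3% of rat reads (83.0 to 83.6), and 2 mismatches for 1.45% and 57.0%, the most that the tables allow. At 65.3% of the 7047 mismatched bases in mouse reads, and at 98.6% of the 100259 in rat reads, the read carried the base of the 18S rRNA assembled from its own library. Measured against that assembled molecule, 6.65% of mouse reads (6.40 to 6.92) and 2.10% of rat reads (2.00 to 2.21) had a mismatch. With any label 6.63% of mouse reads (6.37 to 6.89) and 4.86% of rat reads (4.76 to 4.97) had one, so most of that gap closed. The assembled sequence follows the most frequent short stretches of all reads of the library, so it tends to take up differences that most reads share. It is not the majority of labelled reads at each position: at 1250 it has C, while 60 of 69 labelled rat reads had T. The direction between species was thus opposite under the 2 standards. Both alternatives were added after the data were seen.

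A few positions carried many of the listed mismatches, here written entry base, 18S position, read base. In the mouse T1780C led with 3757 reads, 99.9% of the reads over that position, and the following ones were C180G with 291, T1100C with 154, A1101G with 132 and G202C with 63. T1780C lies within the 1771 to 1813 fragments shown above, where it is the capital letter, and Gm42418 also has T there. In the rat T1275C had 12698 reads and T1268C had 12031, which are the 2 capitals of the leading rat fragment. T587C had 6445 rat reads, T432C 5410 and T1412C 5245, each at 99.8% or more of the reads over its position. Changes of an entry T to a read C made up 59.2% of mismatched bases in mouse reads and 67.6% in rat reads. The main mouse entry, read back from its matches and mismatches, differed from the assembled 18S at 12 of 1841 positions (0.652%), and the rat entry at 87 of 1303 positions (6.68%).

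Against the assembled 18S rRNA few positions had a frequent second base. In the mouse T292G was carried by 50 of 862 reads (5.8%; 4.34 to 7.58) and T1580G by 16 of 104 reads (15.4%; 9.06 to 23.8). Among labelled rat reads the highest share at positions with at least 100 reads was that of T582G, with 5 of 281 reads (1.78%; 0.580 to 4.10). With any label, T212C was carried by 128 of 355 rat reads (36.1%; 31.1 to 41.3), G268T by 651 of 3731 rat reads (17.4%; 16.2 to 18.7), and C1111G by 184 of 3147 (5.85%; 5.05 to 6.72).

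Around position 1245, between well-covered flanks, both libraries ran almost dry of reads. Other positions were as thinly covered in the mouse, with 13 labelled reads at position 45 and 18 at position 650. Labelled rat reads left positions 740 to 767 and 979 to 1004 uncovered, while rat reads under any label covered both stretches. Depth was 600 mouse reads and 1731 labelled rat reads at position 1240, was 21 mouse reads and 30 rat reads at position 1245, and was 1159 mouse reads and 8915 rat reads at position 1260. With any label the rat had 33 reads at 1245 and 9444 at 1260. Most listed fragments near position 1245 thus ended before it or began after it, as the leading rat fragments at 1255 and 1256 did. The reason for the low depth was not tested. The stretch is shown as it stands in Gm42418 at chr17:39847592-39847622 (GRCm38, plus strand), with position 1250 in capitals.
Positions 1235 to 1265: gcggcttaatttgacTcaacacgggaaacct
A uridine of this conserved loop of 18S rRNA is known to carry a bulky modification in eukaryotes. Of the 21 mouse reads over position 1250, 10 had T and 11 had C. Of the 69 labelled rat reads 60 had T and 9 had C. With any label 66 of 228 rat reads had T, 144 had C, 16 had A and 2 had G. Position 1250 was the first base of 3 of these mouse reads, 7 of the labelled rat reads and 101 of the 228. Gm42418 has T there. The stretch was singled out after its values were seen, and the base shares at such low depth are a description of these reads.

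**Figure D5:**
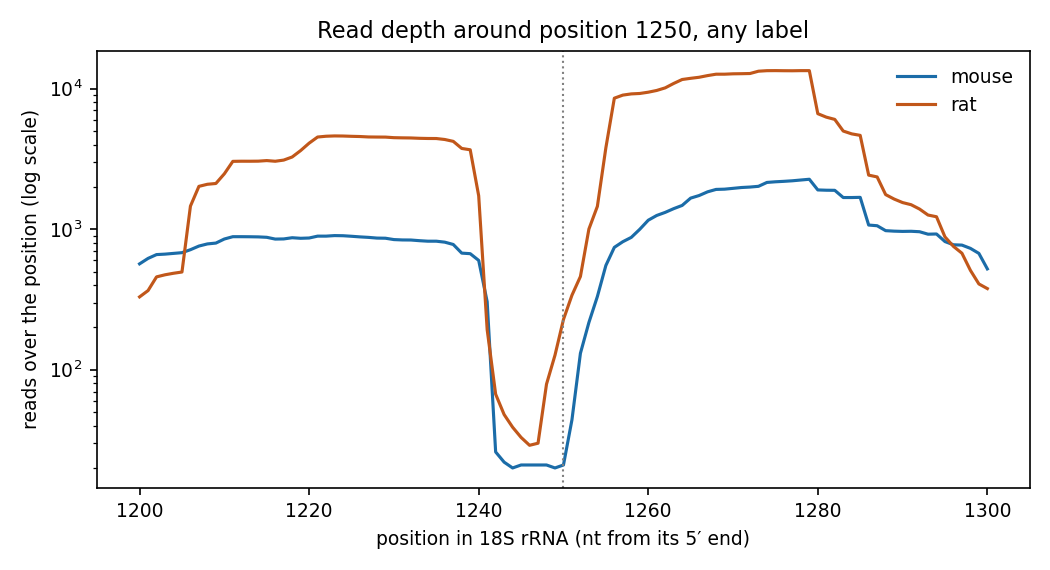
Number of reads over each position from 1200 to 1300 of 18S rRNA (log scale) in the mouse and rat libraries, under any label, with a dotted line at position 1250. Both lines drop steeply between positions 1240 and 1242, reach their lowest values at 1244 (20 mouse reads) and 1246 (29 rat reads), and rise to 1159 and 9444 reads at position 1260.

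For context, 5S rRNA held 3.45% of listed mouse reads and 4.01% of listed rat reads, 5.8S rRNA 0.0754% and 0.606%, and GenBank entries labelled rRNA 10.5% and 43.3%. Fragments of 18 to 25 nt made up 9.51% of mouse 5S reads and 12.7% of rat 5S reads, and 33.5% of the reads under the GenBank rRNA label in each species. For 5.8S rRNA that share was 82.5% of 521 mouse reads and 31.7% of 12736 rat reads, the opposite direction to 18S rRNA. These shares of the other rRNAs go by the deposited label alone, and reads under further labels were not added.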

How the data were processed

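Small RNAs of 18 to 45 nt from cauda sperm were sequenced on an Illumina GAIIx, per the labels. The deposited values are counts: the authors listed each distinct sequence with its number of reads, strand, database entry and up to 2 mismatches, per the file headers. The submitters' processing notes name Bowtie 0.12.7, mm9 and rn5, without saying which step used which build. The way reads were trimmed and several matches resolved was not given in the sources used here. Not every rank identifier is listed: 53.3% of mouse and 68.6% of rat identifiers are, and all shares are of listed reads (691381 mouse reads, 2102735 rat reads).

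Members were the sequences labelled SSU_rRNA_eukarya by Rfam; the 1 on the minus strand was reverse-complemented. In 394 mouse members the count had been turned into a date and was left out. Each 18S rRNA was assembled from reads by extending k-mers of 17, 15 and 13 nt from the most used mouse start to the end of the RefSeq 18S copy. In the mouse 3 bases (positions 330 to 332) came from the other library, and in the rat 7 (1633 to 1639). Sequences were placed ungapped with up to 2 mismatches (seed of 6 nt), the remaining members with up to 3 edits (edlib 1.3.9.post1). The placing step was tested on simulated fragments. Python 3.11.15, scipy 1.17.1, numpy 2.4.6 and matplotlib 3.10.9 were used. GENCODE M21 (GRCm38) gave the mouse coordinates.

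Members and lists were chosen with earlier results of these data known. Named by rule were the 5 most abundant sequences, 10 most used starts and 5 most abundant listed mismatches of each library, the 3 largest start ratios each way and the other rRNA labels. With 1 library per species no test was run. With 3 counts as the floor, a sequence that gave no read could still make up to 0.000434% of listed mouse reads or 0.000143% of listed rat reads. A sequence under an unlisted identifier could have any count, so these limits do not cover it. Alternatives changed the label set, count minimum, mismatches, weighting, leading sequences and start merging.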

Additional observations from a re-analysis of the deposited data

Results flagged for a closer look

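Reads outside the 18S label aligned to 18S rRNA in both libraries, 320 reads for the mouse and 89686 for the rat, and the report gives their places and labels. In the mouse 394 of the 9423 members were listed without a readable count, and reading the month of the date as the count would give them 7 to 12 reads each and 3568 reads together. No explanation was tested for any of these values.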

How the results depend on the processing

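No paired analysis was possible because each species has 1 library. Of 29 alternatives, 25 moved the value by more than counting error, 3 turned its direction and 1 moved it by less. The 18S share, mouse over rat, was 1.48, and adding sequences under any label turned it to 0.664. It was 1.58 with months as counts, 1.10 at 10 or more reads and 2.69 over distinct sequences. For perfect matches to the database entry it was 10.2. A mismatch to the entry was listed for 18.8% of mouse and 83.3% of rat 18S reads, so that setting left out most rat 18S reads. Differences below are percentage points, mouse minus rat. Reads of 18 to 25 nt differed by -33.8, by -35.0 at 10 or more reads, -21.2 over distinct sequences, -27.5 without the 10 most abundant and -22.3 under any label. The 10 most abundant sequences differed by -6.76, by -1.14 at 10 or more reads, -16.3 for perfect matches to the entry and -0.282 under any label. The 10 most used starts differed by -12.8, by -4.40 at 10 or more reads, -14.4 with starts within 2 nt merged, -4.50 over distinct sequences and -2.71 under any label. Shared sequences differed by -52.3, by -19.8 at 10 or more reads, -36.9 by the first 18 nt, -47.3 without the 10 most abundant and -9.24 under any label. Listed mismatches differed by -64.5, by -68.1 at 10 or more reads, -52.8 over distinct sequences and -60.8 without the 10 most abundant; counted against the assembled 18S, alternatives chosen after seeing the data, the difference was 4.55 for labelled reads and 1.77 under any label. The share of starts from position 1249 on differed by 4.24, by 9.56 at 10 or more reads, 0.655 over distinct sequences, 4.01 without the 10 most abundant and 8.59 under any label. For the 3 reversals and the other shifts the cause was not tested, beyond what each alternative's construction shows.

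Depth and missing identifiers limit the low starts most: a start with 9 reads has a wide counting interval, and sequences under unlisted identifiers were not analysed here. One library per species gives no spread between animals.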
